A study of Mus musculus with 6 samples.

Results

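The 10 genes described here are the signal transducers Stat3, Stat4, Stat5a, Stat5b and Stat6, the kinase Jak3, and the feedback suppressors Socs1, Socs2, Socs3 and Cish. They were chosen by symbol in the deposited count table, which holds 18180 genes, and all 10 were found and passed the filter on low counts that left 15061 genes for testing. RNA was sequenced from whole tail skin of mice in 2 groups of 3 libraries. The libraries labelled cKO carried the genotype Mettl3fl/fl;K14creERT2+/-, in which a tamoxifen-dependent Cre recombinase is driven by the keratin 14 promoter of basal keratinocytes, and the skin came from spontaneously inflamed areas of the tail. The control libraries carried Mettl3fl/fl;K14creERT2-/- and came from normal tails, so both groups shared the floxed Mettl3 alleles. Tamoxifen had been given on 5 days in a row, and skin was collected 4 weeks later, as the series' design text states. Age, sex and strain are not given in the labels. By design the Cre targets cells in which the keratin 14 promoter is active, and loss of Mettl3 was not checked in any cell type. Genotype and inflammation went together and cannot be told apart. The comparison asks how transcripts of this module differed between inflamed skin of the Cre genotype and normal control skin.

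Cytokine receptors without a kinase domain of their own bind Janus kinases (JAKs), which phosphorylate the receptor and then STAT proteins. Phosphorylated STATs pair up, enter the nucleus and act as transcription factors. Among the genes they switch on are SOCS proteins and CISH, which bind the receptor or the kinase and close the loop. In skin, STAT3 relays signals of the IL-6 and IL-20 families to keratinocytes, STAT6 relays IL-4 and IL-13, STAT4 relays IL-12 and IL-23 in lymphocytes, and STAT5A and STAT5B relay growth hormone, prolactin, IL-2 and GM-CSF type cytokines. JAK3 works with the common gamma chain of the IL-2 receptor family, mainly in lymphocytes. STAT activity is set by phosphorylation, which RNA counts do not measure.

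Library totals ran from 35855880 to 37043849 counts. Levels below are given as CPM, the count of a gene in every 1e+06 counts after TMM scaling, unless FPKM (per kilobase of gene length, unscaled) is named, and errors are SD over n = 3 libraries. The targeted gene went against its label: Mettl3 had 569, 512 and 540 counts in the libraries labelled cKO and 440, 389 and 337 counts in control (log2 fold change 0.48, SE 0.11, edgeR adjusted p = 0.000102). The counts cover the whole gene and not the floxed exons alone, and directions below are those of the libraries labelled cKO. Libraries of a group differed little, with a common biological coefficient of variation (BCV) of 5.34%, and the labels leave unsaid whether each was a different animal. The p-values therefore cover library-to-library spread alone, and that spread may be technical. Within-group pairs differed by 3.94 to 4.12 times the variance that read sampling alone gives. All 12 keratinocyte markers were detected, 8 of them higher and 4 lower, with Krt14 at 7685 CPM in the libraries labelled cKO and 4156 CPM in control. Of all genes tested 30.8% were called higher and 30.6% lower. At the depth of these markers small changes were called too, with folds from 1.02 for Perp to 9.44 for Krt1.

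Of the 10 genes, 4 rose (Socs1, Socs3, Jak3 and Stat6), 2 fell (Stat5a and Stat3) and 4 did not pass the test (Socs2, Cish, Stat4 and Stat5b), at an adjusted p under 0.05 in edgeR's quasi-likelihood test over all genes. The 6 called genes make 60%, against 61.4% of all genes tested (30.8% called higher and 30.6% lower), so the number of calls was near the background and is not a result about these genes. The groups did not overlap in 8 of the 10, against 64.9% of all genes. Socs1 and Socs3 were called and at least 2-fold higher, as were 5.98% of all genes. The median log2 fold change of the 10 genes was 0.28, against 0.00 over all genes tested.

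**Figure D1:**
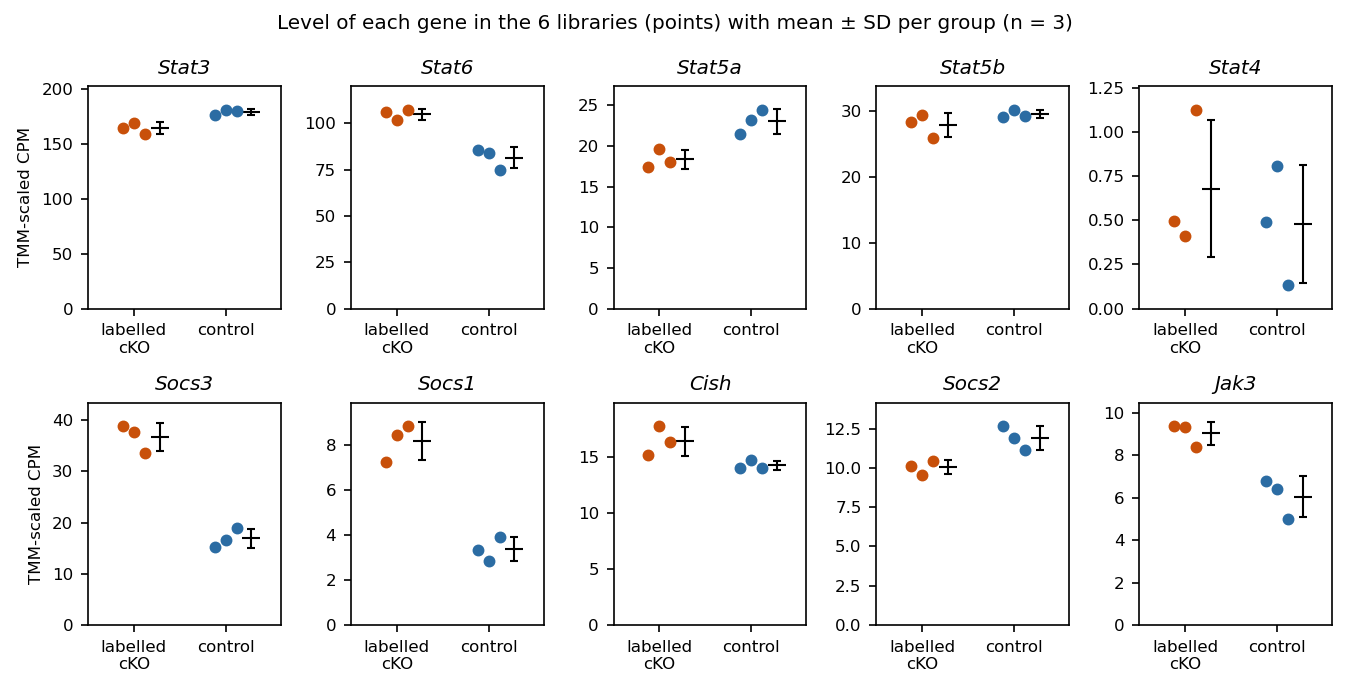
TMM-scaled CPM (y axes, from 0) of the 10 genes in the 3 libraries labelled cKO (left) and the 3 control libraries (right), with black bars for the mean ± SD per group. Socs3 and Socs1 separate most widely in proportion to their level, while the points of Stat4 and Stat5b overlap between groups.

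Among the STAT genes, Stat6 rose, Stat3 and Stat5a fell, and Stat5b and Stat4 were not called. Stat6, the factor behind IL-4 and IL-13 responses, had 106, 102 and 107 CPM in the libraries labelled cKO and 85.4, 83.8 and 75.0 CPM in control. All libraries labelled cKO lay above all controls (log2 fold change 0.37, SE 0.041, edgeR adjusted p = 1.89e-12). In RefSeq, Stat6 overlaps Nab2, and counting whose strand setting is not given could affect the counts of both. RefSeq also places Gm30989 over Stat6, Gm46295 over Stat3, Gm31812 and Gm3940 over Stat4, and Gm33230 over Socs2. Nab2 averaged 30.3 ± 1.23 CPM in the libraries labelled cKO and 28.3 ± 0.10 CPM in control and was not called (edgeR adjusted p = 0.212).

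Stat3, the main transducer of IL-6 and IL-20 family signals, was the most abundant of the 10 genes. It had 165, 170 and 159 CPM in the libraries labelled cKO and 176, 181 and 180 CPM in control. The groups did not overlap, but the difference was small, with a log2 fold change of -0.12 (SE 0.029, edgeR adjusted p = 0.000161), or a fold of 1.09. Stat5a had 17.4, 19.6 and 18.1 CPM in the libraries labelled cKO and 21.5, 23.1 and 24.4 CPM in control, again without overlap (log2 fold change -0.33, SE 0.084, edgeR adjusted p = 0.000545). Its paralogue Stat5b had 28.2, 29.4 and 25.8 CPM in the libraries labelled cKO and 29.0, 30.1 and 29.2 CPM in control. These ranges overlapped, and the log2 fold change of -0.08 had an interval of -0.22 to 0.06 (95% interval from the SE, edgeR adjusted p = 0.320). Stat5a made up 53.4% ± 1.61 of the summed Stat5a and Stat5b FPKM in the libraries labelled cKO and 57.5% ± 1.56 in control (exact two-sided permutation p = 0.1, the smallest that 3 against 3 libraries allow). Stat5a and Stat5b are close paralogues that lie next to each other in RefSeq, with Stat3 on the other side of Stat5a, and the deposited counting could have split reads between the 2 paralogues, so their separate values are uncertain.

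Stat4, a factor of T and NK cells, was near the limit of detection. It had 18, 15 and 41 counts in the libraries labelled cKO and 18, 29 and 5 counts in control. The groups overlapped and library 3 set the extreme in each (log2 fold change 0.51, SE 0.55, interval -0.57 to 1.58, edgeR adjusted p = 0.434). Without replicate 3 of the libraries labelled cKO the log2 fold change was -0.0673, so no direction can be given at this depth.

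Socs3 and Socs1 were the members with the largest changes. Socs3, which binds gp130-type receptors and their JAKs, had 38.8, 37.6 and 33.6 CPM in the libraries labelled cKO and 15.3, 16.6 and 18.9 CPM in control. It rose 2.17-fold, and its lowest library labelled cKO lay well above its highest control (log2 fold change 1.11, SE 0.078, edgeR adjusted p = 1.85e-21). Socs1, a JAK inhibitor that restrains interferon and gamma chain signalling, had 7.23, 8.45 and 8.82 CPM in the libraries labelled cKO and 3.32, 2.85 and 3.92 CPM in control. It rose 2.43-fold, likewise without overlap (log2 fold change 1.28, SE 0.17, edgeR adjusted p = 3.79e-10).

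Cish and Socs2, both known as STAT5-induced suppressors, did not follow Socs1 and Socs3 past the test. Cish had 15.2, 17.8 and 16.3 CPM in the libraries labelled cKO and 14.03, 14.7 and 14.1 CPM in control. Each library labelled cKO was above each control, yet the log2 fold change of 0.20 (SE 0.097, interval 0.01 to 0.39) had an edgeR adjusted p of 0.065. It crossed the threshold under 4 of the alternatives tried, with an edgeR adjusted p of 0.0367 without replicate 1 of the libraries labelled cKO. Socs2, which targets the growth hormone receptor, had 10.1, 9.55 and 10.4 CPM in the libraries labelled cKO and 12.6, 11.9 and 11.1 CPM in control. It also did not overlap, in the other direction, with a log2 fold change of -0.24 (SE 0.11, interval -0.47 to -0.02, edgeR adjusted p = 0.0597). Without control replicate 3 its edgeR adjusted p was 0.0462.

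Jak3 was the lowest of the JAK kinases per length and the only JAK gene called higher, while Jak1 was called lower and Jak2 and Tyk2 were not called. Jak3 had 9.36, 9.30 and 8.40 CPM in the libraries labelled cKO and 6.78, 6.39 and 4.98 CPM in control. The groups did not overlap, with control replicate 3 the lowest of all (log2 fold change 0.58, SE 0.14, edgeR adjusted p = 0.000333). Insl3, which overlaps Jak3 in RefSeq, had 16 counts over the libraries labelled cKO and 25 over control. Jak3 and Stat4 are lymphocyte genes. Of 11 tested T and NK cell markers 8 rose and none fell (median log2 fold change 1.34). Cd8a among them passed the filter on low counts through the libraries labelled cKO alone, with 43 counts there and 1 over control. The number of calls and the median of the tested markers were therefore partly set by the filter and are no test. Summed without Thy1, which fibroblasts also make and which was set aside after its values were seen, these markers held 20.9 to 21.4 CPM in the libraries labelled cKO and 6.10 to 7.98 CPM in control. Cd4 had log2 fold change 2.06 and Lck 2.26, while Cd3e was not called (edgeR adjusted p = 0.292). Ncr1 and Klrb1c, both untested, had 2 and 16 counts over the libraries labelled cKO and no count in control. Of 16 neutrophil markers 10 were tested, and all 10 rose. Trem1, Mmp8 and Fpr2, with 9, 5 and 16 counts over control, also passed the filter through the libraries labelled cKO alone. The 16 summed to 79.9 to 85.4 CPM in the libraries labelled cKO and 23.1 to 29.5 CPM in control. Itgam and Mmp9 held most in the libraries labelled cKO, at 27.0 and 23.5 CPM, against 14.9 and 3.24 CPM in control. The untested markers had few counts. Over the libraries labelled cKO and over control, Ly6g had 15 and 6, Ltf 18 and 2, Camp 34 and 24, and Ngp 20 and 12. Mpo and Elane, of granule formation, had 5 counts or fewer over either group. Of the monocyte and macrophage markers 14 of 15 rose, at a summed 1662 to 1700 CPM in the libraries labelled cKO and 1176 to 1194 CPM in control. Of 9 fibroblast markers 8 rose and 1 fell, against 30.8% of all genes called higher and 30.6% lower. Of 7 blood vessel markers 6 rose, and all 6 red blood cell markers fell. Of 10 dendritic and Langerhans cell markers 5 rose and 1 fell, and of 7 tested mast cell and basophil markers 4 rose. Neither of 2 tested B cell and plasma cell markers was called, and of 6 tested skeletal muscle markers 1 rose. Of 6 adipocyte markers 5 fell, with a summed level of 495 to 506 CPM in the libraries labelled cKO and 699 to 706 CPM in control. The part of these cells in the changes of Jak3, Socs3 and the other genes was not tested, and in whole skin more cells of a type and more RNA per cell cannot be told apart.

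**Figure D2:**
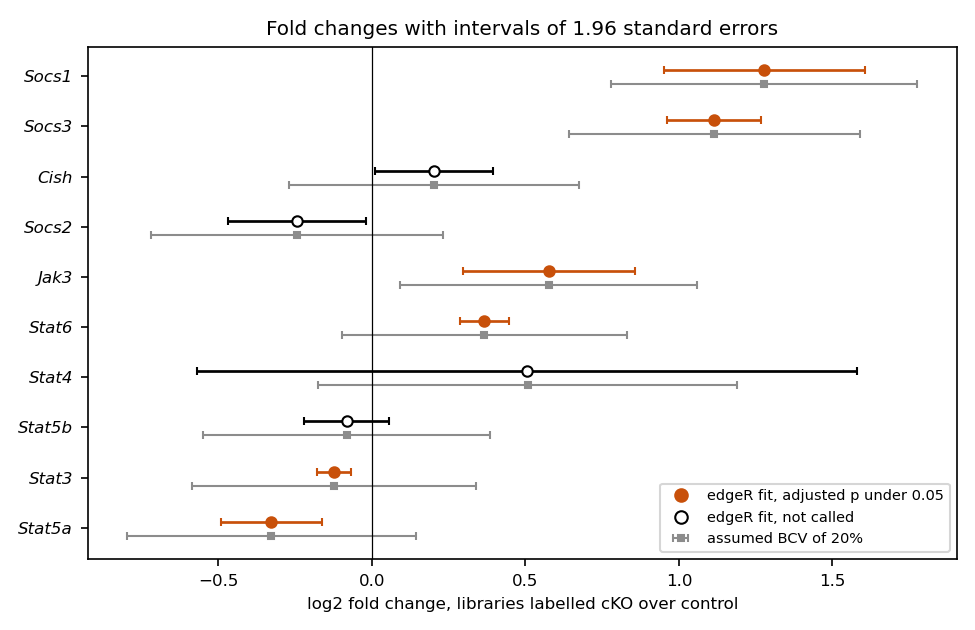
Log2 fold changes (x axis, libraries labelled cKO over control) of the 10 genes with 95% intervals from the SE. Circles show the edgeR fit, filled where the adjusted p was under 0.05, and grey squares show a fit that assumes a BCV of 20%, under which Socs1 and Socs3 kept an adjusted p under 0.05 and the other 8 did not.

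The number of calls depended on the spread assumed between libraries. With an assumed BCV of 20%, in place of the 5.34% estimated from these libraries, Socs1 (adjusted p = 8.24e-06) and Socs3 (adjusted p = 5.36e-05) passed in edgeR's likelihood ratio test, 2 of the 10 genes where 22.3% of all genes passed. Jak3, Stat6, Stat5a and Stat3 did not, with adjusted p of 0.0777, 0.294, 0.368 and 0.783. With an assumed BCV of 40%, 0 of the 10 passed in the same edgeR test and 2 had an unadjusted p under 0.05, with Socs1 at an adjusted p of 0.126, and 0.00853 before adjustment, and Socs3 at 0.226, and 0.0198 before adjustment. DESeq2 and limma-voom, which estimate the spread from the data, kept the calls of all 6 genes.

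Per length, Stat3 and Stat6 stood above the other 8 genes in both groups. Stat3 had 36.4 ± 1.18 FPKM in the libraries labelled cKO and 39.1 ± 0.609 FPKM in control, and Stat6 had 27.8 ± 0.777 FPKM in the libraries labelled cKO and 21.2 ± 1.44 FPKM in control. In the libraries labelled cKO the order continued with Socs3, Socs1, Cish, Stat5a, Stat5b, Jak3, Socs2 and Stat4. In control it ran Socs3, Stat5a, Cish, Stat5b, Socs1, Jak3, Socs2 and Stat4. Neighbours in either order did not overlap between their 3 libraries, from 13.5 ± 1.0 FPKM for Socs3 to 0.213 ± 0.122 FPKM for Stat4 in the libraries labelled cKO. Socs1 stood at rank 4 in the libraries labelled cKO, with 6.14 ± 0.630 FPKM, and at rank 7 in control, with 2.49 ± 0.399 FPKM. The length by which the deposited FPKM divides was 12005 bp for Socs2, against 1340 bp for Socs1.

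**Figure D3:**
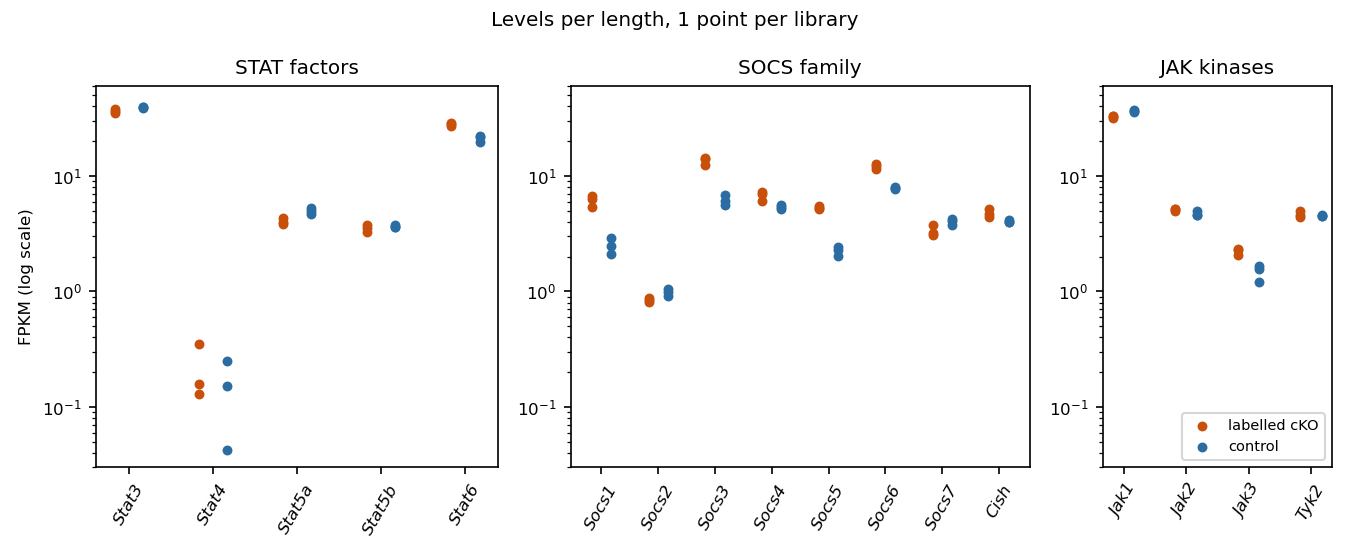
FPKM (log axis) of the 5 STAT genes among the 10 and of the SOCS and JAK family genes, 1 point per library, with libraries labelled cKO left of control for each gene. Socs1, Socs3 and Socs5 sit clearly higher in the libraries labelled cKO, while Stat3 and Jak1, the highest points of their panels, sit slightly lower.

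The make-up of each family was read as shares of its summed FPKM. Stat3 held 43.7% ± 1.16 of the summed FPKM of the 7 STAT genes in the libraries labelled cKO and 50.7% ± 1.13 in control. Stat6 held 33.3% ± 1.21 in the libraries labelled cKO and 27.5% ± 1.5 in control, and the STAT sum was 83.4 ± 0.792 FPKM in the libraries labelled cKO and 77.1 ± 1.32 FPKM in control. The 8 SOCS family genes together had 52.9 ± 0.842 FPKM in the libraries labelled cKO and 33.1 ± 0.682 FPKM in control, and Socs3 held 25.6% ± 1.64 of the sum in the libraries labelled cKO and 18.5% ± 1.66 in control. Jak3 held 4.99% ± 0.229 of JAK FPKM in the libraries labelled cKO and 3.13% ± 0.513 in control. Jak1 held 73.2% ± 0.390 in the libraries labelled cKO and 77.2% ± 0.867 in control. For the shares of Stat3, Socs3 and Jak3 the groups did not overlap, and the exact two-sided permutation test gave p = 0.1 for each, the smallest it allows. Taken as shares of counts, without division by length, the difference was 4.50 percentage points for Socs3, against 7.04 in FPKM, and 1.2 for Jak3, against 1.86 in FPKM.

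The promoters of Socs3 and Socs1 are shown because these genes changed most. They come from RefSeq on GRCm38.p6, whereas the counts were made on mm39, and cover the 250 bases before the transcript start. Capitals in Socs3 mark TTCNNNGAA, the palindrome that STAT dimers bind, and capitals in Socs1 mark GAAANNGAAA, an element of interferon-responsive promoters that was searched for on both strands after the Socs1 sequence had been seen.
Socs3 (chr11:117969367-117969616, minus strand): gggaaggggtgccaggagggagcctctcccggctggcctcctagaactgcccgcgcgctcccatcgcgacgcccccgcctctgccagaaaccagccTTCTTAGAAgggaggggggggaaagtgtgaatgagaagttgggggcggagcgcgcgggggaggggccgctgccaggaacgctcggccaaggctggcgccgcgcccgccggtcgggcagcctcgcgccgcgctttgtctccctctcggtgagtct
Socs1 (chr16:10785537-10785786, minus strand): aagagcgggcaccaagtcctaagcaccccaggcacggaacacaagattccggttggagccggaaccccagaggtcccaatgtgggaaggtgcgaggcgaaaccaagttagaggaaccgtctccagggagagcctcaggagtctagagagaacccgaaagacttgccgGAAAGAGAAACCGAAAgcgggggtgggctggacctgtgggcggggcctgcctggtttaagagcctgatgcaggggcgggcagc
The Socs3 match, TTCTTAGAA, began 154 bases before the start. It was the only match of TTCNNNGAA in the 12 promoters listed for 9 of the 10 genes, while 7.02% of all 32851 promoters held one, and TTCNNNNGAA, the spacing that STAT6 prefers, was found in none of the 12 and in 5.85% of all. In Socs1, 2 overlapping matches of GAAANNGAAA began 83 and 77 bases before the start, and a promoter of Stat4 held a match as well, or 2 of the 12, while 2.98% of all promoters held this motif. These are descriptions of letters in this window, and binding was not measured.

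The genes most like Socs1 across the 6 libraries, by the root mean square difference of centred log2 CPM among 11439 genes of at least 5 CPM, were Irgm1 (0.0468), Coro1a (0.0912), B4galnt1 (0.0963), Foxm1 (0.0984) and Ripk3 (0.110). Irgm1, an interferon-induced GTPase, had 388, 436 and 465 counts in the libraries labelled cKO and 180, 149 and 194 counts in control. Coro1a is an actin-binding protein of leukocytes, Foxm1 a transcription factor of the cell cycle and Ripk3 a kinase of necroptosis. All 5 rose without overlap, and with 6 libraries in 2 groups the measure mostly follows the group difference.

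Other genes of the pathway were described by lists. Over 11 lists of 130 genes, 114 were tested, of which 60 rose and 24 fell, with a median log2 fold change of 0.31. That is 73.7%, against 61.4% of all genes. Because the lists were chosen with earlier results of these data known, this share is a description and no test of the pathway. The list counts below stand against 30.8% of all genes called higher and 30.6% called lower. Some genes passed the filter on low counts through a single group, such as Il21r through the libraries labelled cKO and Il31ra through control. The filter therefore partly set list counts and medians. Of 124 tested genes that the deposited tables annotate to the JAK-STAT signalling pathway, a set added after values were seen, 49 rose and 35 fell (median 0.10), or 67.7%.

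**Figure D4:**
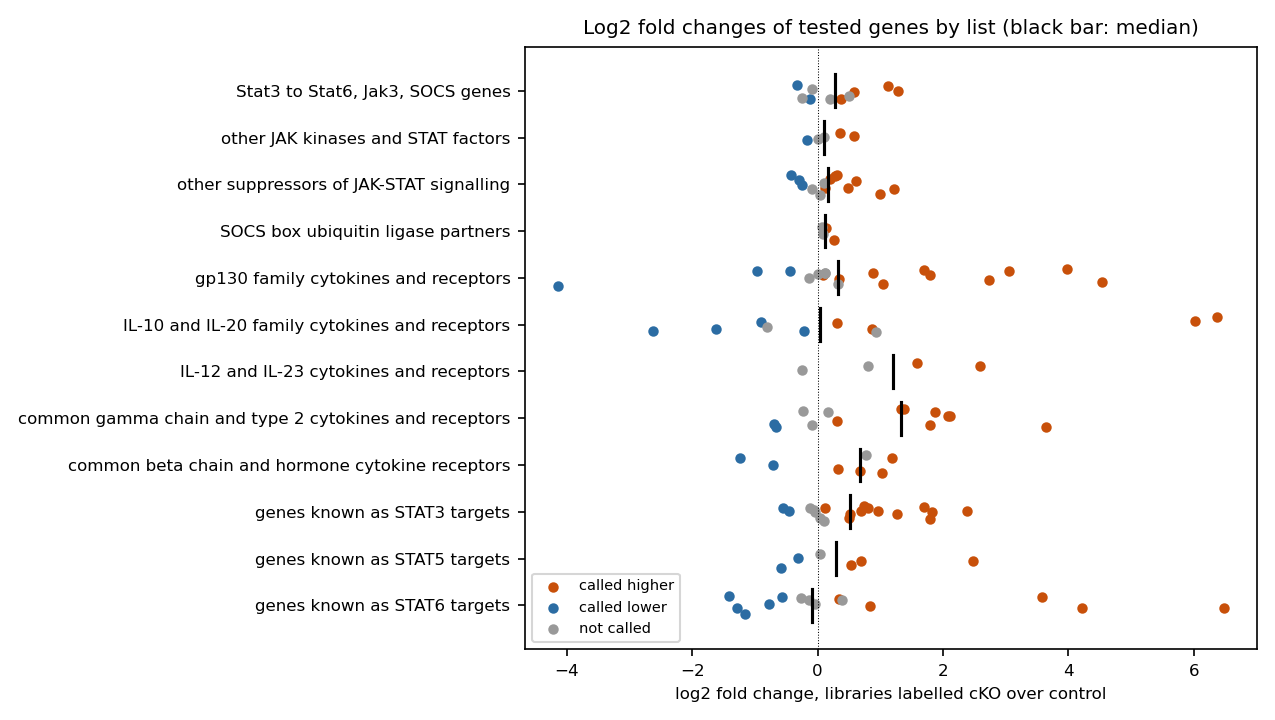
Log2 fold changes (x axis) of the tested genes in each list, 1 point per gene, coloured by call, with a black bar at the median. The common gamma chain list has the highest median, 1.32, and the STAT6 target list spreads from -1.41 to 6.48 with a median of -0.09.

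Among the other STAT and JAK genes, Stat2, of interferon responses, rose 1.28-fold (20.1 ± 1.05 CPM in the libraries labelled cKO, 15.7 ± 0.675 CPM in control, edgeR adjusted p = 0.000411). Jak1, the most abundant JAK, fell 1.13-fold (188 ± 3.66 CPM in the libraries labelled cKO, 213 ± 4.15 CPM in control). Jak2 (log2 fold change 0.10, edgeR adjusted p = 0.0819) and Tyk2 (log2 fold change 0.01, edgeR adjusted p = 0.946) were not called. Among 14 other suppressors 8 rose and 3 fell (median 0.16). Socs5, a SOCS protein linked to EGF receptor and IL-4 signalling, rose 2.32-fold (52.1 ± 1.49 CPM in the libraries labelled cKO, 22.5 ± 2.09 CPM in control, edgeR adjusted p = 7.85e-28), close in size to Socs1 and Socs3. Socs6 rose 1.54-fold, the interferon feedback gene Usp18 rose 2.0-fold and Pias4 rose 1.41-fold, while Pias3, an inhibitor of STAT3, fell 1.35-fold and Socs7 fell 1.22-fold. Of the 4 partners that join SOCS proteins to a ubiquitin ligase, Cul5 and Rnf7 rose 1.2-fold and 1.1-fold and Elob and Eloc were not called.

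Several cytokines and receptors upstream of Stat3 had larger fold changes than the 1.09 of Stat3. Of 18 tested gp130 family genes 10 rose and 3 fell (median 0.33), against 30.8% of all genes called higher and 30.6% lower. The ligand Osm had 93, 59 and 64 counts in the libraries labelled cKO and 3, 2 and 4 in control, and Il6 had 45, 44 and 57 counts in the libraries labelled cKO and 6, 2 and 1 in control, both called higher. Lif rose 3.47-fold and Csf3r, a receptor of neutrophils, rose 6.64-fold. The shared receptor chain Il6st (gp130) rose 1.06-fold (153 ± 5.90 CPM in the libraries labelled cKO, 144 ± 3.65 CPM in control, edgeR adjusted p = 0.0114), the ligand-binding chain Il6ra fell 1.94-fold and Il31ra fell 17.6-fold (0.294 ± 0.138 CPM in the libraries labelled cKO, 5.23 ± 0.763 CPM in control). Of 10 tested IL-10 and IL-20 family genes 4 rose and 4 fell (median 0.04). Il24 had 163, 133 and 146 counts in the libraries labelled cKO and 0, 1 and 4 in control, and Il19 had 161, 117 and 135 counts in the libraries labelled cKO and 0, 5 and 1 in control. Il10ra rose 1.81-fold and Il10rb 1.24-fold, while the ligand Il20 fell 3.07-fold and the IL-22 decoy receptor Il22ra2 fell 6.2-fold, both at under 2 CPM.

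In the common gamma chain and type 2 list, not all of which lies upstream of Jak3, 8 of 13 tested genes rose and 2 fell (median 1.32). Over all genes 30.8% were called higher and 30.6% lower. Il21r passed the filter on low counts through the libraries labelled cKO alone, and Il2, Il4, Il9r and Il13 were too low to be tested, so the filter partly set these values. Il2rg, the gamma chain to which JAK3 binds, had 374, 342 and 384 counts in the libraries labelled cKO and 60, 101 and 95 counts in control. It rose 4.31-fold (log2 fold change 2.11, SE 0.17, edgeR adjusted p = 4.08e-18), next to a Jak3 fold of 1.49. Il2rb rose 4.24-fold, Il7r 3.67-fold and Il21r 12.5-fold from 13 counts over control, while the ligand Il7 fell 1.62-fold and the IL-13 decoy receptor Il13ra2 fell 1.58-fold. Il4ra, the receptor chain that recruits STAT6, rose 2.5-fold (115 ± 2.90 CPM in the libraries labelled cKO, 46.1 ± 1.18 CPM in control, edgeR adjusted p = 6.23e-41), while its ligands had few counts, with Il4 at 13 counts over the libraries labelled cKO and 4 over control, and Il13 at 2 counts over the libraries labelled cKO and 5 over control. In the IL-12 and IL-23 list, 2 of 4 tested genes rose, Il23a and Il23r, named after their values were seen and both under 1 CPM. Both passed the filter on low counts through the libraries labelled cKO alone. The IL-12 receptor chains Il12rb1 (1.26 ± 0.301 CPM in the libraries labelled cKO, 0.722 ± 0.0886 CPM in control) and Il12rb2 (0.974 ± 0.0866 CPM in the libraries labelled cKO, 1.16 ± 0.245 CPM in control) were not called.

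Receptors that feed Stat5a and Stat5b went both ways, with 4 of 7 tested genes higher and 2 lower (median 0.67). Over all genes 30.8% were called higher and 30.6% lower. The beta chains Csf2rb and Csf2rb2, near-identical copies whose reads could be split, rose 2.28-fold and 2.04-fold, and Csf2ra and Il3ra rose 1.59-fold and 1.26-fold. The prolactin receptor Prlr fell 2.35-fold (19.5 ± 1.48 CPM in the libraries labelled cKO, 45.8 ± 1.67 CPM in control, edgeR adjusted p = 7.46e-27) and the growth hormone receptor Ghr fell 1.63-fold (46.8 ± 0.972 CPM in the libraries labelled cKO, 76.5 ± 1.44 CPM in control).

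Of 19 genes known as STAT3 targets 12 rose and 2 fell (median 0.51), against 30.8% of all genes called higher and 30.6% lower. Timp1, a protease inhibitor, rose 5.19-fold (45.0 ± 1.68 CPM in the libraries labelled cKO, 8.67 ± 0.374 CPM in control), the acute-phase genes Saa3 and Hp rose 3.54-fold and 3.48-fold, and the NF-kB cofactor Bcl3 rose 3.25-fold. The kinase Pim1 and the survival gene Bcl2l1 fell 1.46-fold and 1.37-fold. Of 6 genes known as STAT5 targets 3 rose and 2 fell (median 0.29): Foxp3, of regulatory T cells, rose 5.55-fold at under 2 CPM, Pim2 rose 1.61-fold and Igf1 1.45-fold. Bcl6, which STAT5 is known to repress, fell (log2 fold change -0.59, 31.3 ± 2.45 CPM in the libraries labelled cKO, 47.1 ± 1.21 CPM in control), and Bcl2 fell 1.25-fold with overlapping groups, a call that DESeq2 and limma-voom did not make. The 14 genes known as STAT6 targets split, with 5 higher and 5 lower (median -0.09). Arg1, also made by keratinocytes, rose 12-fold (735 ± 6.35 CPM in the libraries labelled cKO, 61.2 ± 2.65 CPM in control), Mrc1 rose 1.77-fold, and Chil4 and Chil3 were called higher from 8 and 10 counts over control. The chemokine Ccl24 fell 2.66-fold and the resistin-like Retnla fell 2.43-fold. Many genes in these 3 lists also respond to other factors, so their counts are no measure of STAT activity.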

How the data were processed

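Whole tail skin RNA was extracted with TRIzol and made into VAHTS Universal V5 libraries, per the labels' protocols. The authors deposited whole-number counts per gene, not normalized, and FPKM values for the same genes. Per the submitters' processing notes the tools were fastp, HISAT2 and HTSeq and the build mm39. Which annotation and strand setting were used, and how multi-mapping reads were handled, is not given in the sources used here. FPKM served for levels between genes and for alternatives.

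The count test was edgeR 4.0.16 under R 4.3.3: filterByExpr (minimum count 10, minimum total 15), TMM scaling, robust quasi-likelihood fit with group as the only term over all 6 libraries, and Benjamini-Hochberg adjustment over 15061 genes. SE is the log2 fold change over the root of F. Totals of 35855880 to 37043849 counts put 3 counts at 0.0817 to 0.0837 CPM, a limit for counting error only. This edgeR fit was first tested on simulated data, and the fits used as alternatives were not. Few genes were changed in that simulation, equally in both directions. It therefore does not check scaling or error control for data in which 61.4% of genes were called. Family shares used exact permutation.

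Named genes were all 10 members, from each list at most 4 called genes of its commoner direction and 2 of its rarer one (at least 1 CPM), and fixed receptors and kinases, of which 1 gene is not reported here. Members and lists were chosen with earlier results of these data known. Alternatives were other scalings, DESeq2 1.42.0, limma-voom and limma 3.58.1 on log2 FPKM, other filters, the replicate number as a block, stricter p, assumed BCV, and leaving out each library.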

Additional observations from a re-analysis of the deposited data

How the results depend on the processing

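Under 19 alternatives, no direction among the 6 called genes reversed and 173 of 189 values kept their direction and side of the threshold. The assumed spread moved the counts most. With an assumed BCV of 20%, 2 of the 10 genes were called higher and 0 lower, against 4 and 2, and all genes called fell to 1830 higher and 1531 lower, against 4637 and 4607. With an assumed BCV of 40% in edgeR's likelihood ratio test, 0 of the 10 were called in either direction (2 at an unadjusted p under 0.05), and 458 genes were higher and 316 lower. The pathway lists, 60 higher and 24 lower, had 42 and 13 at 20% and 22 and 3 at 40%; at 20% the other suppressors had 3 higher and 0 lower in place of 8 and 3, and the SOCS box, other STAT and JAK and lower STAT3 target calls were all lost.

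Leaving out each library kept all 6 calls, with 4 to 5 of the 10 higher, 2 to 3 lower, and log2 fold changes of 1.17 to 1.40 for Socs1, 1.05 to 1.2 for Socs3, 0.45 to 0.67 for Jak3, 0.31 to 0.40 for Stat6, -0.38 to -0.28 for Stat5a and -0.15 to -0.10 for Stat3. Cish was called with upper quartile factors, on log2(FPKM + 1) and log2(FPKM + 0.1) with the filter, and without replicate 1 of the libraries labelled cKO, and Socs2 without control replicate 3. Without replicate 3 of the libraries labelled cKO, the uncalled Stat4 and Tyk2 reversed, and over the left-out libraries the log2 fold change of Stat4 ran from -0.0673 to 1.11 and that of Tyk2 from -0.0432 to 0.0464. The cause was not tested. With a library left out, the difference in share of FPKM ran from -7.51 to -6.35 percentage points for Stat3, 6.23 to 7.92 for Socs3, 1.57 to 2.07 for Jak3 and -4.90 to -3.29 for Stat5a. As shares of counts it was -6.41, 4.50, 1.2 and -4.09, smaller in size for each and by over 1.5 times for Socs3 and Jak3, in the same direction.

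Same-numbered libraries shared only a number, with correlations of their deviations from -0.0064 to -0.00274. With the replicate number as a block, 4 of the 10 were higher and 2 lower, as without it, and the exact sign-flip permutation test of the 4 shares gave p = 0.25, the smallest it allows. Depth limited Stat4, with 74 counts over the libraries labelled cKO and 52 over control. The 2 calls of the IL-12 and IL-23 list were lost when at least 1 CPM in 3 libraries was required.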
